A study of Mus musculus with 18 samples.

Results

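The constitutive subunits of the proteasome and the cap genes that share their symbol stems were followed in CD8 T cell, CD4 T cell and dendritic cell (DC) sorts from mouse tumours. All protein-coding genes whose symbol starts with Psma, Psmb, Psmc or Psmd followed by a digit were taken, without the inducible subunits Psmb8, Psmb9 and Psmb10, which gave 37 genes of the 46983 in each deposited table. Of these, 16 belong to the core, 8 in the alpha ring and 8 in the beta ring, and 21 to the cap as the symbols name it. The cap genes are 6 base ATPases (Psmc1 to Psmc6), 3 other base subunits (Psmd1, Psmd2, Psmd4), 8 lid subunits, 3 assembly chaperones (Psmd5, Psmd9, Psmd10) and Psmc3ip, a meiotic recombination factor that shares only the stem of its symbol. The other 33 are subunits of the particle itself, among them Psma8 and Psmb11, which replace a core subunit in testis and thymus.

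The 18 libraries came from MC38 tumours, a mouse colon carcinoma line grown under the skin of C57BL/6 females injected at 6 weeks of age. When tumours averaged 100 mm3 the mice were pooled and divided at random, and were then treated for 2 weeks with anti-PD-1 antibody alone (200 µg per mouse, 2 times a week) or with the same antibody plus D18 (25 µg per mouse, 1 time a week), for which the labels give only this code name. Each of the 3 sorts has 3 libraries per treatment, made by the Smart-Seq2 protocol, and all groups received anti-PD-1, with no library from an untreated tumour. Nothing in the sources used here ties a replicate to a separate mouse, so the p-values below measure only the spread between these libraries.

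The proteasome degrades proteins tagged with ubiquitin. Its barrel-shaped core is built of outer rings of alpha subunits, which gate the entrance, and inner rings of beta subunits, of which Psmb5, Psmb6 and Psmb7 cut the chain. The cap docks on the barrel: Psmd4 binds the ubiquitin chain, Psmd14 in the lid removes it, and the ring of ATPases unfolds the protein and threads it into the core. In immune cells interferon gamma induces Psmb8, Psmb9 and Psmb10, which take the places of Psmb5, Psmb6 and Psmb7 in newly built particles and change the peptides offered to T cells. When proteasome activity falls short, the factor Nfe2l1 raises subunit genes together through an antioxidant-response-like sequence in their promoters.

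The libraries were shallow, and several went against their labels. They held 11170 to 266392 reads, of which 8036 to 225156 fell on nuclear protein-coding genes, so 3 reads, the upper limit that a count of 0 allows, stand for 13.3 to 373 CPM (reads per 1000000 nuclear protein-coding reads of the library). Mitochondrial genes took 71.9% of the reads in DC anti-PD-1 replicate 2, 67.7% in CD4 anti-PD-1 replicate 2 and 40.1% in CD4 anti-PD-1 replicate 1. The other libraries ranged from 2.39% to 32.5%. CPM leaves these reads out, and the part of this difference in the proteasome values was not tested. DC D18 replicate 2 was the shallowest, with 24 reads on the 37 genes together. Reads of Cd3e, which marks T cells, numbered 0 and 1 in CD4 anti-PD-1 replicates 1 and 2, and 34 and 69 in the DC libraries numbered 3. CD4 D18 replicate 3 had 83 reads of Cd8a against 2 of Cd4. Summed over the marker lists, the T cell genes ranged over 3851 to 15011 CPM in the CD8 sort, 119 to 9622 in the CD4 sort and 0 to 7446 in the DC sort, and the monocyte and macrophage genes over 1456 to 50142, 9782 to 77157 and 16551 to 68136. The genes that define dendritic cells most closely were near 0 in all 18 libraries (at most 13 reads of Flt3, 2 of Zbtb46, 4 of Xcr1 and 9 of Clec9a). H2-Aa and Itgax, also on the dendritic cell list, reached 689 and 52 reads. The whole dendritic cell list summed to 888 to 8171 CPM in the CD8 sort, 1199 to 25480 in the CD4 sort and 3235 to 23830 in the DC sort. In bulk samples of this kind, fewer cells of a type and less RNA per cell cannot be told apart, and the part of these cell mixtures in the proteasome values was not tested.

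The sequences upstream of 4 genes are shown because the results turn on them: Psmb5 and Psmb6 as catalytic subunits of the core, Psma2 as the core subunit that was higher with D18 in every library of both T cell sorts, and Psmc2 as the cap subunit with the smallest p-value between treatments. Each line gives the 250 bases before a RefSeq start of the gene, 5′ to 3′ on the gene's own strand, on GRCm38.p6. The GENCODE positions can differ: that of Psmb5 starts at 54618022, inside its window. Distances below are to the RefSeq starts. Capitals mark matches, on either strand, to TGACNNNGC (the antioxidant-response-like sequence), CCAAT (the box bound by NF-Y) or CGGAAG (the core of sites for Ets factors). Psmb5 lies at chr14:54617996-54618245 on the minus strand, Psmb6 at chr11:70525107-70525356, Psma2 at chr13:14612992-14613241 and Psmc2 at chr5:21785025-21785274, the last 3 on the plus strand.
Psmb5: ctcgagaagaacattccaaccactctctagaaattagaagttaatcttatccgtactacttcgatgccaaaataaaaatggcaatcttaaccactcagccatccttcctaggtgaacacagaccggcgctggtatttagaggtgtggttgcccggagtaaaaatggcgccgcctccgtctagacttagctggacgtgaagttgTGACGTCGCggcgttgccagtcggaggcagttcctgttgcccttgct
Psmb6: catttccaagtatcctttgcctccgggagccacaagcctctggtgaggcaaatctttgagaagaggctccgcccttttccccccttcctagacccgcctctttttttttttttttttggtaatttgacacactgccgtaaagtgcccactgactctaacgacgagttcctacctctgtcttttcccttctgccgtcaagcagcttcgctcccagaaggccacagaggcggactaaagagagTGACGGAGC
Psma2: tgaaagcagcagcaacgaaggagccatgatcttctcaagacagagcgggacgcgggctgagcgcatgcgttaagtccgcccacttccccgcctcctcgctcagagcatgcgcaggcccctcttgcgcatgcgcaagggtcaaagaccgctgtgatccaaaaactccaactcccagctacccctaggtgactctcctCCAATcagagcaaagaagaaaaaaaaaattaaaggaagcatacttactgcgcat
Psmc2: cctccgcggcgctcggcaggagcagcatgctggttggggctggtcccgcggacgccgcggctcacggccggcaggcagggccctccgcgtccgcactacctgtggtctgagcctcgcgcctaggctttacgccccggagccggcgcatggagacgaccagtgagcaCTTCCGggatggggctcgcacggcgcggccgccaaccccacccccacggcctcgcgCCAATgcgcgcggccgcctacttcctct
The match to TGACNNNGC begins 47 bases before the start in Psmb5 and 9 bases before it in Psmb6. The CCAAT match begins 54 bases before the start in Psma2 and 28 in Psmc2, and the match to CGGAAG on the opposite strand of Psmc2 begins 84 bases before it. Windows of this length were found for 30 of the 37 genes, 12 of the core and 18 of the cap, and numbered 32544 in all. A gene can have several windows, as Psmc2 has 2. The shares below are by gene for the 30 and by window for the background, so their units differ. TGACNNNGC was present in 5 of the 30 (16.7%; Psmb5, Psmb6, Psmc6, Psmd12 and Psmd9) against 10.2% of all windows, and CCAAT in 13 of 30 (43.3%) against 33.8%. CGGAAG was present in 17 of 30 (56.7%) against 13.7% of all windows, in 4 of the 12 core genes and 13 of the 18 cap genes with a window. These 3 motifs overlap in no base with each other in the 4 sequences shown. They were kept after the counts were seen, and a looser form of the first and a longer form of the second were tried and dropped, so the shares are a description.

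Core transcripts were more abundant than cap transcripts in these sorts. Over the 17 libraries other than DC D18 replicate 2, CPM per kilobase of transcript were highest for the alpha subunit Psma7 (536 ± 151, SD, n = 17), the beta subunit Psmb2 (525 ± 113) and Psma1 (429 ± 148), and 9 of the first 10 genes in the order were core genes. The highest cap gene was the ubiquitin receptor Psmd4 (212 ± 64.0), followed by the ATPase Psmc4 (172 ± 71.7), the lid subunit Psmd8 (162 ± 58.2) and the deubiquitinase Psmd14 (152 ± 75.3). These neighbours do not differ beyond their spread, nor do Psma7 and Psmb2. Among genes with reads in at least 9 libraries, the median level per kilobase was 275 over 14 core genes and 91.1 over 21 cap genes, and 13 of the 14 core genes were above the cap median. The exception was the catalytic subunit Psmb7 (77.6 ± 41.8), which 12 cap genes exceeded. Within each of the 17 libraries the median core gene exceeded the median cap gene, by 3.23 times in the median library (range 1.71 to 8.16). Transcript lengths enter this scale. The median length was 1174 bases in the core and 1636 in the cap, and Psma2 and Psma3 were taken at 2911 and 2846 bases.

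**Figure D1:**
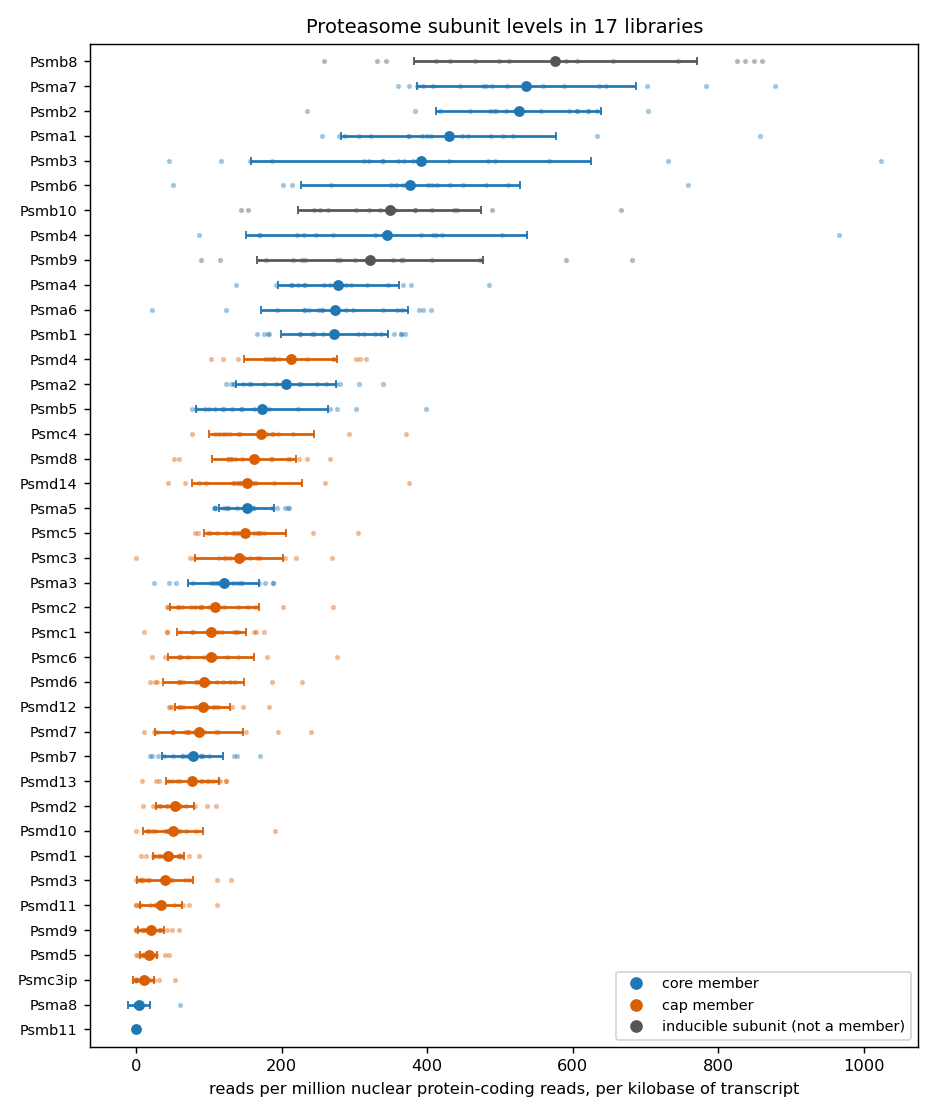
Level of each gene in CPM per kilobase of transcript, with 1 point per library (17 libraries, DC D18 replicate 2 left out) and the mean and SD; core, cap and the 3 inducible subunits are coloured apart. Core genes such as Psma7 (536) and Psmb2 (525) stand above the highest cap gene, Psmd4 (212).

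The genes that are not part of the standard particle were at low levels, as were several subunits of it. The assembly chaperones averaged 50.6 ± 41.6 per kilobase (Psmd10), 20.6 ± 17.9 (Psmd9) and 17.1 ± 11.8 (Psmd5), and Psmc3ip 10.3 ± 14.8 (SD, n = 17), while the base subunit Psmd1 (44.2) and the lid subunits Psmd3 (39.6) and Psmd11 (34.3) lay below Psmd10. The testis subunit Psma8 had 6 reads, all in DC anti-PD-1 replicate 2, and the thymus subunit Psmb11 had 1, in DC D18 replicate 2, with 0 in each other library. Reads were not assigned by strand as far as the sources used here say, and exons of 8 of the 37 genes overlap those of another gene. The overlap is largest for Psmd9 (25.5% of its exon bases, with the noncoding gene Gm26745) and Psmc3ip (21.2%, with Mlx), and covers 11.8% of Psmb7 (with Nek6) and 8.25% of Psmc3 (with Slc39a13), so the values of these genes are uncertain. Annotated pseudogenes of the subunits took few reads: 1 for Psmb5-ps, 3 for Psmb6-ps2 and 0 for the others.

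The 3 catalytic subunits stood at different levels, and so did the inducible subunits that can replace them. Psmb6 was the most abundant of the catalytic subunits (377 ± 150 per kilobase, SD, n = 17), then Psmb5 (173 ± 90.9) and Psmb7 (77.6 ± 41.8). Inducible Psmb8 averaged 576 ± 195, above the mean of every constitutive gene but within the spread of Psma7 (536 ± 151). In the DC libraries the means of Psma7 (490) and Psmb2 (463) were above that of Psmb8 (407). Psmb10 averaged 349 ± 126 and Psmb9 322 ± 155. Psmb8 exceeded its counterpart Psmb5 in 18 of 18 libraries, and made up 67.4% to 87.5% of the pair in the 17 deeper ones. Psmb10 exceeded Psmb7 in 18 of 18 as well (63.9% to 95.4% of the pair in the 17). The pair of Psmb9 and Psmb6 did not follow the same order: Psmb9 was the higher in 5 of 18 libraries, and in 4 of the 17. Its share of the pair ran from 20.5% to 93.1% in the 17. By sort, mean Psmb5 was 206 ± 117 per kilobase in CD8, 182 ± 83.2 in CD4 and 101 ± 63.1 in DC libraries (SD, n = 6 each), and mean Psmb8 was 733 ± 143, 568 ± 176 and 407 ± 92.8, so both had their highest mean in the CD8 and their lowest in the DC libraries.

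**Figure D2:**
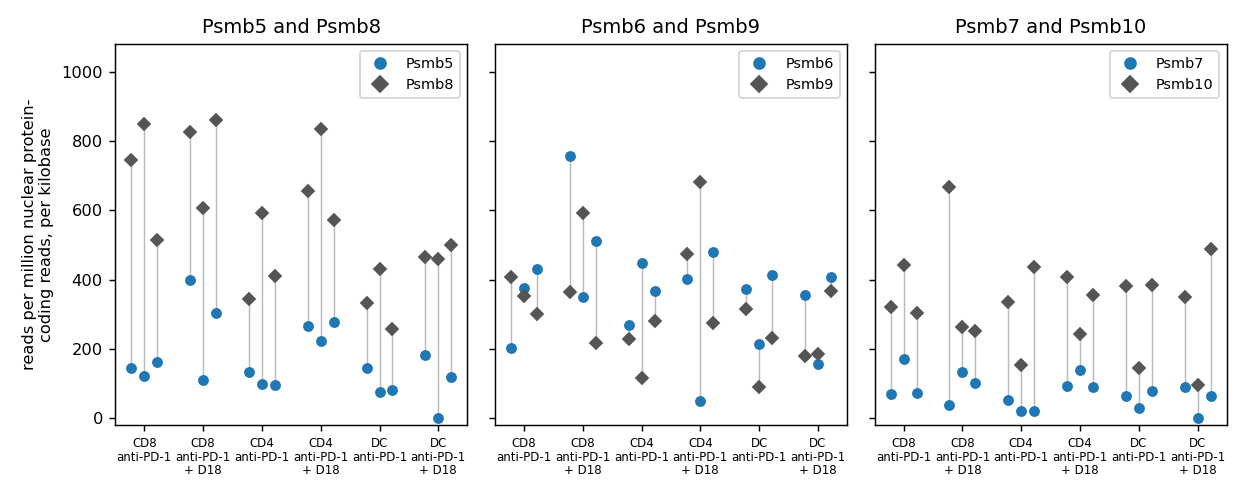
Levels per kilobase of each catalytic subunit and the inducible subunit that can take its place, with 1 pair of points per library, by sort and treatment. Psmb8 lies above Psmb5 and Psmb10 above Psmb7 in all 18 libraries, whereas Psmb9 lies above Psmb6 in 5 (4 of 17 without DC D18 replicate 2).

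The core and the cap were next summed in each library, as CPM. The 37 genes together took 0.629% to 1.18% of these reads in 17 libraries and 0.299% in DC D18 replicate 2, where 15 of the 37 were detected, against 29 to 36 elsewhere. In the CD8 sort the core held 3649, 6185 and 4247 CPM in anti-PD-1 replicates 1 to 3 and 7144, 5490 and 5849 with D18. The cap held 2907, 5580 and 3485 under anti-PD-1 alone against 2979, 3797 and 2895 once D18 was added. Both groups overlapped on each sum: the core averaged 4694 ± 1326 against 6161 ± 870 and the cap 3991 ± 1406 against 3224 ± 499 (SD, n = 3 each), with the highest cap sum and the second highest core sum both in anti-PD-1 replicate 2.

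As CPM, core and cap sums in the CD4 sort and core sums in the DC sort also overlapped between treatments, whereas the DC cap sums did not. In the CD4 sort the core averaged 4220 ± 859 CPM with anti-PD-1 and 5154 ± 617 with D18, and the cap 2824 ± 132 and 3234 ± 691 (SD, n = 3). In the DC sort the core averaged 4189 ± 412 with anti-PD-1 and 3993 ± 2278 with D18, where the 3 libraries held 5154, 1369 and 5457. The low value is that of the shallowest library, and without it the D18 core averaged 5306 ± 214 (n = 2), with both libraries above the 3 anti-PD-1 ones. The DC cap averaged 3651 ± 632 with anti-PD-1 and 2380 ± 701 with D18 (2761 ± 333 without the shallowest library), with the 3 D18 libraries at 2525, 1618 and 2996, all below the anti-PD-1 range of 3245 to 4379.

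**Figure D3:**
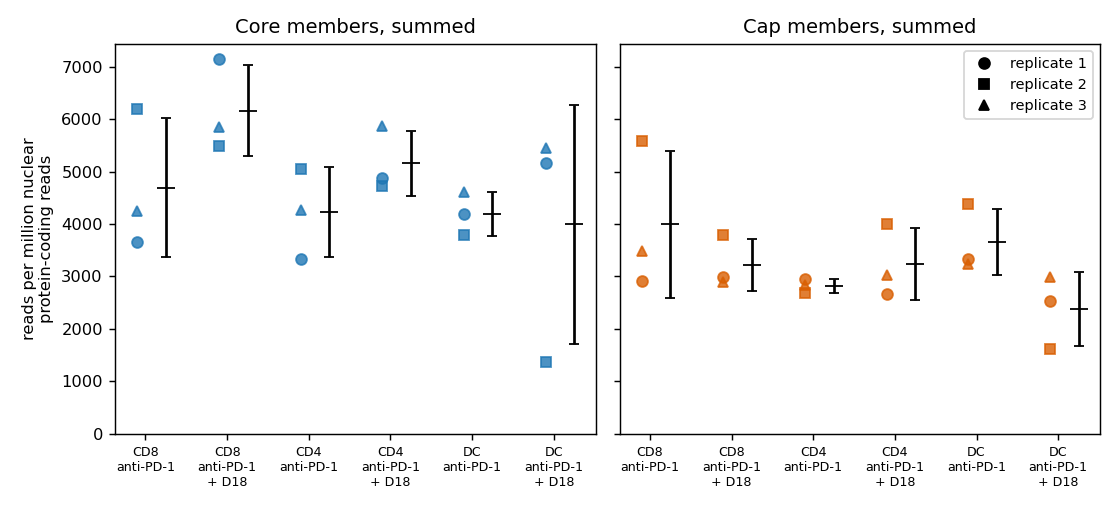
Summed CPM of the core genes and of the cap genes, with 1 point per library marked by replicate and the mean and SD of each group. DC D18 replicate 2 is the low point of the core panel, at 1369.

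The share of proteasome reads that fell on core genes separated the treatments in the CD8 sort. It was 55.7%, 52.6% and 54.9% in the anti-PD-1 libraries and 70.6%, 59.1% and 66.9% with D18 (replicates 1 to 3), so that every D18 library was above every anti-PD-1 library. The means were 54.4 ± 1.61% and 65.5 ± 5.85% (SD, n = 3 each), a difference of 11.1 percentage points. The library nearest the other group, D18 replicate 2, had an exact 95% binomial interval of 57.0% to 61.2%. It starts within the interval of anti-PD-1 replicate 3 (51.3% to 58.6%). The interval of anti-PD-1 replicate 1 (50.7% to 60.6%) holds the 59.1% of D18 replicate 2 itself. These intervals cover counting error only. The difference was 8.61 to 14.3 points when each library was left out in turn, 10.7 without both libraries numbered 3, 10.8 over the 33 subunits of the particle alone and 9.39 on the per-kilobase scale, but 3.24 when the median subunit of core and cap stood for the sum. On that last measure D18 replicate 2 had 53.2%, below the anti-PD-1 range of 59.6% to 61.8%, so the treatments were not separated. Since the gene list was chosen with results of these data known, no p is given for this share.

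Values of other genes also differed among the same CD8 libraries. The monocyte and macrophage marker list summed to 32020, 25476 and 50142 CPM in the anti-PD-1 libraries and to 1456, 3180 and 32878 with D18, and the part of this in the core share was not tested. In each sort, the libraries of anti-PD-1 replicates 1 and 2 had 0 reads each on mt-Atp6, mt-Co2 and mt-Co3, genes of the mitochondrial genome, where the other 12 libraries had 5 to 334. No label names this difference, and it falls on libraries of 1 treatment only. Among the CD8 libraries that had these reads, 1 of anti-PD-1 alone and 3 of D18, the core share differed by 10.6 points.

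In the other sorts the core share did not separate the treatments. In the CD4 sort it was 53.1%, 65.3% and 60.0% under anti-PD-1 alone against 64.7%, 54.1% and 65.9% once D18 was added, a difference of means of 2.07 points that ran from −1.12 to 5.79 as each library was left out. In the DC sort it was 55.7%, 46.3% and 58.7% under anti-PD-1 alone against 67.1%, 45.8% and 64.6% once D18 was added, a difference of 5.61 points. The 45.8% rests on 24 reads (interval 25.6% to 67.2%), and without that library the difference was 12.3 points, with both remaining D18 libraries above the 3 anti-PD-1 ones. Among the 4 DC libraries with reads of the 3 mitochondrial genes, the 24-read library included, it was 0.51 points, and without that library 7.18 points, from 1 library against 2.

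**Figure D4:**
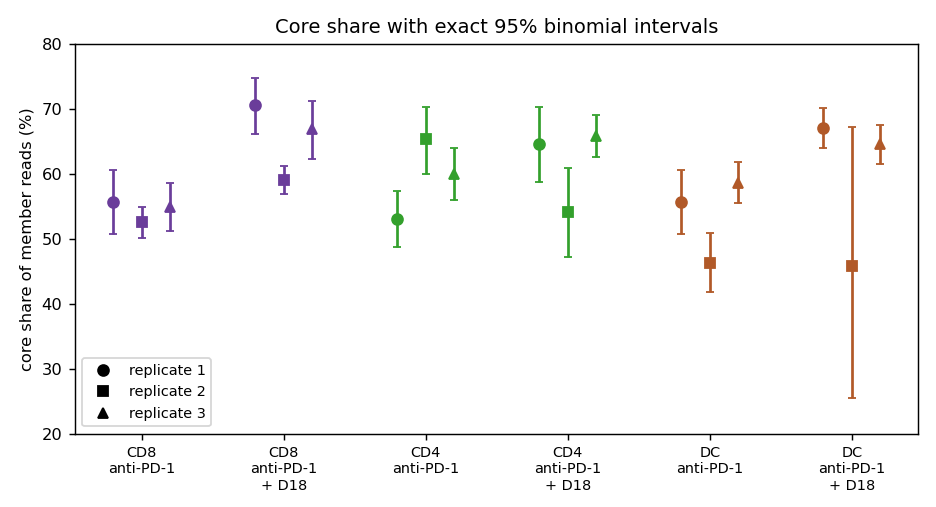
Percent of the reads on the 37 genes that fell on the 16 core genes, with 1 point per library and its exact 95% binomial interval. In the CD8 sort the D18 libraries (59.1% to 70.6%) lie above the anti-PD-1 libraries (52.6% to 55.7%); in the CD4 and DC sorts the groups overlap.

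Gene by gene, D18 added to anti-PD-1 changed no proteasome subunit past the threshold in the CD8 sort. Of the 37 genes, 28 reached a mean of 10 normalised reads (reads divided by the library's size factor) and were tested on log2(normalised reads + 1), and 0 of them had a Benjamini-Hochberg adjusted p under 0.05 in limma's moderated test, where 0% of the 1569 genes tested did. At an unadjusted p under 0.05 there was 1 of the 28, Psmc2, beside 130 of all genes, and limma-voom called 0 genes. With the replicate number as a block, 20 of all genes and 0 of the 28 passed. Differences are log2 changes on this scale, D18 minus anti-PD-1, with the standard error. The 13 core genes tested had a median difference of 0.46, with 9 above 0, and the 15 cap genes −0.17, with 2 above 0, where the median over all genes was −0.03 and 48.3% were above 0. With the minimum removed the counts were 9 of 14 core and 3 of 21 cap genes, with medians of 0.42 and −0.20. With a term for the libraries that lack the 3 mitochondrial genes the core median was 0.28 and the cap median −0.18, and without both libraries numbered 3 they were 0.42 and −0.26, with 6 of 15 cap genes above 0. Leaving out anti-PD-1 replicate 2 gave medians of 0.63 and 0.01, with 12 of 13 core and 6 of 12 cap genes above 0, leaving out anti-PD-1 replicate 1 gave 0.17 and −0.47, and leaving out D18 replicate 1 gave a core median of 0.19.

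The cap value that stood out in the CD8 sort was that of the ATPase Psmc2 (ENSMUSG00000028932.7; mm10 chromosome 5, 21785283 to 21803787, plus strand), one of the 6 that form the unfolding ring. It had 18, 71 and 24 reads in the anti-PD-1 libraries and 7, 23 and 4 with D18, or 24.3, 39.4 and 23.1 against 13.1, 7.87 and 6.74 normalised reads. Every D18 library was below every anti-PD-1 library. The log2 difference was −1.56 ± 0.44 (limma, unadjusted p = 0.00644, adjusted p = 0.534), and −1.81 to −1.01 over the alternatives run, with −1.28 ± 0.67 under the term for the libraries that lack the mitochondrial genes. It was 1 of the 28 genes tested whose D18 values were all lower, where 7.65% of all genes tested were so placed. Psmc2 did not separate the treatments elsewhere: it had 23, 8 and 13 reads against 5, 9 and 14 in the CD4 sort, and 4, 6 and 26 against 13, 0 and 20 in the DC sort.

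The other base and lid subunits were closer to 0 in the CD8 sort. The 6 ATPases had a median difference of −0.21, with 1 above 0, the 2 other base subunits tested −0.13, and 7 lid subunits −0.19, with 1 above 0. Psmd14, which cleaves ubiquitin off the bound protein, had 20.2, 47.2 and 21.1 normalised reads under anti-PD-1 alone against 24.3, 19.5 and 18.5 once D18 was added, a difference of −0.39. The ubiquitin receptor Psmd4 had 35.0, 20.5 and 28.8 against 33.6, 21.9 and 21.9, a difference of −0.12. For both genes the treatments overlapped.

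Among the core genes of the CD8 sort the alpha subunit Psma2 (ENSMUSG00000015671.10; mm10 chromosome 13, 14613240 to 14674236, plus strand) was higher in every D18 library. It had 37.7, 53.8 and 42.3 normalised reads under anti-PD-1 alone against 82.2, 55.8 and 70.7 once D18 was added, a difference of 0.63 ± 0.41 (limma adjusted p = 0.673). It was 1 of the 28 with all D18 values higher, where 6.88% of all genes tested were. The catalytic subunit Psmb5 had 10.8, 8.88 and 13.5 against 29.9, 7.53 and 23.6 (0.65 ± 0.56, adjusted p = 0.726), and Psmb6 13.5, 24.4 and 31.7 against 50.5, 21.6 and 35.4 (0.60 ± 0.48, adjusted p = 0.722). For both catalytic subunits D18 replicates 1 and 3 were the higher ones and D18 replicate 2, the deepest library, lay within or below the anti-PD-1 values. The alpha subunit Psma3 (0.62 ± 0.50) and the beta subunit Psmb3 (0.53 ± 0.48) had differences of like size. With the term for the libraries that lack the mitochondrial genes the differences were 0.69 for Psma2, 0.37 for Psmb5, 0.09 for Psmb6, 0.28 for Psma3 and 0.33 for Psmb3. The 7 alpha genes tested had a median of 0.31 with 4 above 0, and the 6 beta genes 0.55 with 5 above 0. Psmb7, the remaining catalytic subunit, was below the minimum, with 5, 29 and 8 reads against 2, 35 and 6.

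**Figure D5:**
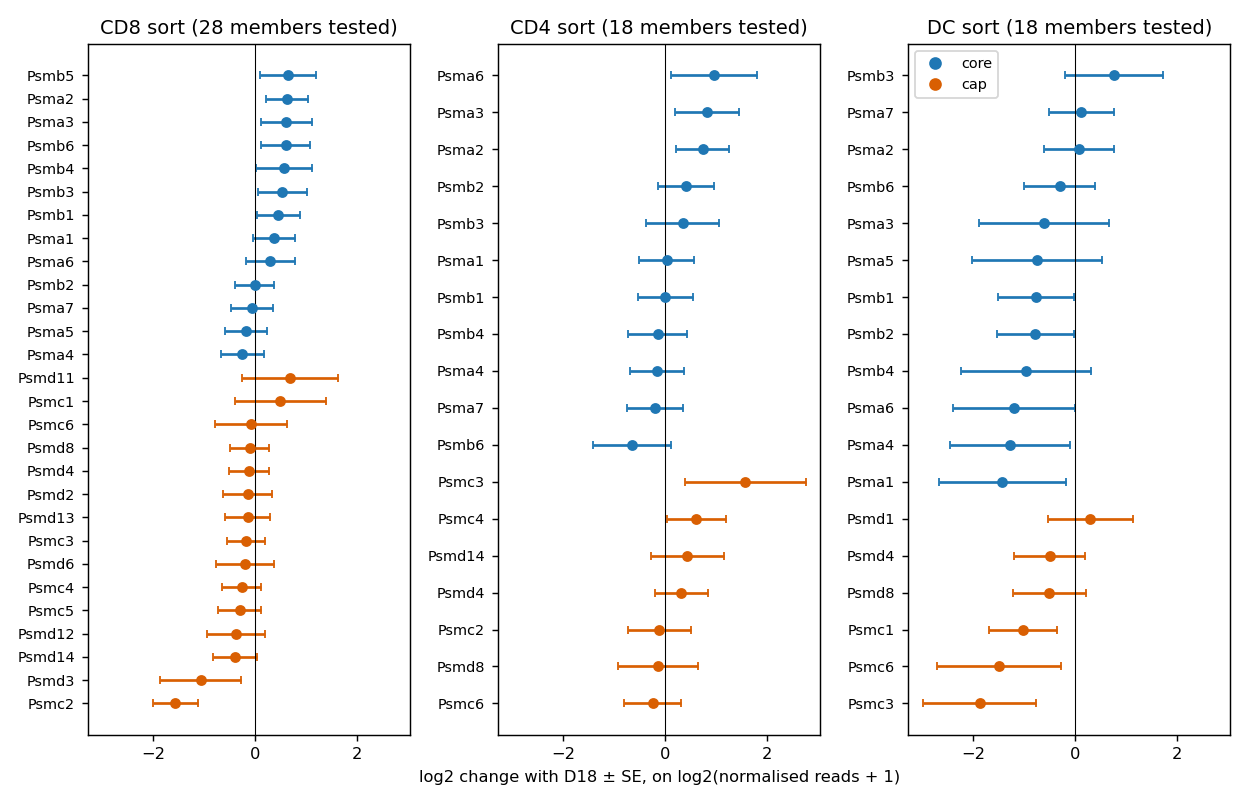
Log2 difference between D18 plus anti-PD-1 and anti-PD-1 alone for each gene tested, with its standard error, in the CD8 (28 genes), CD4 (18) and DC (18) sorts, core and cap coloured apart. In the CD8 panel Psmc2 is the lowest value at −1.56; no gene passed the adjusted threshold in any panel.

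In the CD4 sort 18 of the 37 genes were tested, and 0 differed between treatments at an adjusted p under 0.05 (limma, 0% of 966 genes) or at an unadjusted one, beside 100 of all genes at the latter; limma-voom also called 0. The 11 core genes had a median difference of 0.03 with 7 above 0, and the 7 cap genes 0.32 with 4 above 0, against 0.03 and 51.6% over all genes. Without both libraries numbered 3 these medians were −0.21 and −0.10. Psma2 was again higher in every D18 library, highest in the replicate 3 that holds Cd8a reads, with 22.4, 18.5 and 20.8 normalised reads against 22.6, 37.5 and 49.6, a difference of 0.74 ± 0.52 (limma adjusted p = 0.610). The lowest D18 value lies just above the highest anti-PD-1 value, and 5.28% of all genes tested were higher without overlap, and 9.21% lower.

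Other core genes of the CD4 sort lay on both sides of 0. Psma3 differed by 0.83 ± 0.63, Psmb2 by 0.42 ± 0.55, Psma1 by 0.03 ± 0.54, Psmb1 by 0.01 ± 0.54, Psma7 by −0.20 ± 0.55 and the catalytic Psmb6 by −0.64 ± 0.77. Of the cap, the ATPase Psmc3 differed by 1.58 ± 1.18, Psmd14 by 0.44 ± 0.71 and Psmd4 by 0.32 ± 0.52, none beyond the spread between libraries. The 6 alpha genes had a median of 0.39 and the 5 beta genes 0.01. Anti-PD-1 replicates 1 and 2, which held at most 1 read of Cd3e, are in these values, and without them the core median was 0.20 and the cap median 0.06.

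Psmb5 and Psmb7 fell below the minimum of the CD4 test, and their values are given as a description chosen after they were seen. Psmb5 had 10, 4 and 7 reads under anti-PD-1 alone against 9, 5 and 24 once D18 was added, or 6.99, 4.62 and 4.55 against 12.7, 9.38 and 13.8 normalised reads, the last in the replicate with Cd8a reads. Psmb7 had 5, 1 and 2 reads against 4, 4 and 10, or 3.49, 1.16 and 1.30 against 5.65, 7.50 and 5.77 normalised reads. Both were higher in every D18 library, as was the chaperone Psmd5, among 16 of the 37 genes with a mean of 1 to 10 normalised reads, where 8.3% of all genes in that range were higher without overlap and 5.34% lower. In the CD8 sort 0 of the 6 genes in that range were without overlap, where 6.45% of all genes there were higher and 7.37% lower. In a fit with no minimum their adjusted p was 0.642 each (limma).

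In the DC sort the comparison rests heavily on 1 library. Of the 37 genes 18 were tested, and 0 passed an adjusted p of 0.05 in limma (0% of 886 genes) or an unadjusted p of 0.05, which 61 of all genes did; limma-voom called 0. The 12 core genes and the 6 cap genes both had a median difference of −0.76, where the median of all genes was −0.65 and 30.9% were above 0. Without DC D18 replicate 2 the median of all genes was 0.03, 10 of 12 core genes were above 0 (median 0.40), and 1 of 9 cap genes was (median −0.17). Psma1, an alpha subunit, shows the step: it had 19.1, 33.8 and 22.2 normalised reads under anti-PD-1 alone against 28.2, 0 and 27.7 once D18 was added, a difference of −1.42 ± 1.25 that became 0.19 without that library.

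The cap ATPases Psmc3 and Psmc1 were lower in every DC D18 library, and were singled out for this after their values were seen. Psmc3 had 15.9, 22.2 and 15.6 normalised reads under anti-PD-1 alone against 15.2, 0 and 7.17 once D18 was added, a difference of −1.87 ± 1.12 (limma adjusted p = 0.551). Psmc1 had 15.9, 15.8 and 12.8 against 5.97, 4.81 and 10.5, a difference of −1.02 ± 0.67 (adjusted p = 0.551). Without the shallowest library the differences were −0.70 and −0.82. These were 2 of 18 genes, where 19.9% of all genes tested in this sort were lower without overlap and 4.18% higher. Below the minimum, the base subunit Psmd2, the lid subunits Psmd7 and Psmd12 and Psmc3ip were also lower in every D18 library, 4 of 18 genes with a mean of 1 to 10 normalised reads, where 8.2% of all genes in that range were (8.26% were higher); each had 0 reads in D18 replicate 2. Of the core, Psmb1 differed by −0.77 ± 0.74, Psmb2 by −0.78 ± 0.76, Psmb3 by 0.76 ± 0.96, Psma7 by 0.12 ± 0.63 and Psma2 by 0.08 ± 0.68, with standard errors as large as the differences or nearly so. Without the shallowest library they differed by −0.10, −0.03, 1.53, 0.50 and 0.58.

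The sorts were compared over all 18 libraries scaled together, 6 in each sort. No subunit differed between sorts at an adjusted p under 0.05: 0 of 24 genes tested between CD8 and DC libraries, 0 of 21 between CD4 and DC, and 0 of 22 between CD8 and CD4 (limma, 0% of 1062, 1079 and 1120 genes). At an unadjusted p under 0.05 there were 1, 0 and 0, beside 212, 79 and 52 of all genes, and limma-voom called 0 of the subunits. Between CD8 and DC libraries 12 of 12 core genes and 8 of 12 cap genes had a higher mean log2 value in the CD8 sort, with medians of 0.52 and 0.57, where the median over all genes was 0.28 and 62.3% were higher. Over the anti-PD-1 libraries alone the medians were 0.08 and 0.06, over the D18 libraries alone 1.05 and 0.44, and without DC D18 replicate 2 they were 0.12 and 0.29, with 0.08 over all genes.

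The subunit with the unadjusted p under 0.05 between sorts was Psmd14 (ENSMUSG00000026914.15; mm10 chromosome 2, 61711694 to 61800376, plus strand). On the common scale it had a lowest, median and highest value of 12.9, 14.9 and 37.1 normalised reads in the CD8 sort, 4.58, 12.4 and 24.8 in the CD4 sort, and 0, 10.6 and 15.1 in the DC sort. The sorts overlapped, and the CD8 minus DC difference was 1.21 ± 0.57 on the log2 scale (limma, unadjusted p = 0.0492, adjusted p = 0.248, and 0.0873 to 0.756 over the alternatives). Without DC D18 replicate 2, which had 0 reads of it, the difference was 0.65. The ATPase Psmc2 ran from 4.70 to 31.0 in the CD8 sort and from 0 to 12.5 in the DC sort (1.03 ± 0.55, adjusted p = 0.287, and 0.49 without that library), with its 3 highest CD8 values in the anti-PD-1 libraries. Of the core, the beta subunits Psmb4 (1.25 ± 0.69, adjusted p = 0.301) and Psmb1 (0.52 ± 0.35) and the alpha subunit Psma4 (0.88 ± 0.62) had the smallest p-values, and without that library their differences were 0.48, 0.31 and 0.15.

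The CD4 sort lay between or beside the others without a difference beyond the spread. Psma1 ran from 24.0 to 70.2 normalised reads on the common scale in the CD4 sort and from 0 to 37.2 in the DC sort, a difference of 1.18 ± 0.66 (limma adjusted p = 0.647) that was 0.36 without DC D18 replicate 2. Over the genes tested between CD4 and DC libraries, 8 of 12 core genes (median 0.17) and 5 of 9 cap genes (median 0.11) were above 0, against a median of 0.16 over all genes. Between CD8 and CD4 libraries the counts were 12 of 13 core genes (median 0.23) and 6 of 9 cap genes (median 0.29), against 0.08 over all genes. The beta subunit Psmb3 differed by 0.64 ± 0.53, Psmb6 by 0.48 ± 0.46 and Psma2 by 0.36 ± 0.32, each at a limma adjusted p of 0.991. As sums, the core held 5427 ± 1285, 4687 ± 842 and 4091 ± 1468 CPM in the CD8, CD4 and DC sorts, and the cap 3607 ± 1033, 3029 ± 498 and 3015 ± 917 (SD, n = 6 each).

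Whether the D18 difference of a subunit itself differed between sorts was tested as an interaction term. None passed an adjusted p of 0.05: 0 of 17 genes for CD8 against DC, 0 of 16 for CD4 against DC and 0 of 20 for CD8 against CD4 (limma, 0% of 787, 850 and 917 genes), with 8, 32 and 9 of all genes at an unadjusted p under 0.05. The single subunit at that level was Psmc3, for CD4 against DC (3.63 ± 1.39, unadjusted p = 0.0190, adjusted p = 0.709), a gene with 0 reads in both CD4 anti-PD-1 replicate 2 and DC D18 replicate 2. Its value was 2.42 without the first of these libraries and 2.44 without the second. For CD8 against DC the beta subunit Psmb1 had 1.06 ± 0.68, and for CD8 against CD4 the catalytic Psmb6 had 1.33 ± 0.92. The first was 0.64 without DC D18 replicate 2 and the second 0.46 without CD4 D18 replicate 2. The standard errors set what could be seen: for the D18 differences they were 0.373 to 0.947 per gene in the CD8 sort, 0.518 to 1.18 in the CD4 sort and 0.634 to 1.28 in the DC sort.

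Genes that work with the proteasome were examined as lists beside the subunits, and 0 of their tested members passed an adjusted p of 0.05 with D18 in any sort (limma). Of the 3 inducible subunits, all tested, 1 was above 0 in the CD8 sort, 3 in the CD4 sort and 2 in the DC sort, with medians of −0.02, 0.55 and 0.12. Psmb9 in the CD4 sort had 26, 7 and 31 reads under anti-PD-1 alone against 24, 23 and 36 once D18 was added, a difference of 1.06 ± 0.58 (adjusted p = 0.497). The interferon-induced activator subunits Psme1 and Psme2, the 2 of 5 activator and inhibitor genes tested in each sort, had medians of 0.17, 0.48 and −0.09. Pomp, the chaperone that closes the core during assembly, was the 1 of 5 core chaperones tested in the CD8 sort, with a difference of 0.03.

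Of the regulators of proteasome genes, Nfe2l2 was lower in every D18 library of the CD4 and DC sorts on the normalised scale, without passing the adjusted threshold. This factor, a relative of Nfe2l1 that drives antioxidant genes, had 39, 16 and 27 reads in the anti-PD-1 libraries against 2, 5 and 19 in the CD4 sort (−1.48 ± 0.60, limma adjusted p = 0.453) and 21, 19 and 42 against 20, 1 and 13 in the DC sort (−1.45 ± 0.59, adjusted p = 0.551), where 9.21% and 19.9% of all genes tested in these sorts were lower without overlap. In the CD8 sort it had 3, 38 and 33 against 2, 23 and 8 (−0.86 ± 0.79). Of the 7 regulators 2, 2 and 1 were tested in the CD8, CD4 and DC sorts. Of the 12 genes listed as receptors, deubiquitinases and other factors bound to the proteasome, 3, 2 and 2 were tested. Nfe2l1 itself had at most 6 reads in each library but DC D18 replicate 1, which had 17. Between sorts, Psmb8 had a mean log2 value above that of the DC libraries in the CD8 sort, by 0.76 ± 0.30 (limma, unadjusted p = 0.0233, adjusted p = 0.206), beside 0.33 for Psmb6, the single catalytic constitutive subunit tested there.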

How the data were processed

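RNA from 18 sorted-cell libraries was measured by Smart-Seq2. Per the submitters' processing notes, reads were handled with STAR 2.4.0, HTSeq 0.6.1 and DESeq2 on mm10; no role or setting of these tools is given in the sources used here. The authors deposited 1 table of log2 values per sort (46983 genes; 98.9% of the IDs matched a symbol). These have the form of a variance-stabilised log2 scale and were undone to normalised reads, from which whole reads were recovered for 100% of the values (within 0.001 of a whole number). Total reads per library were 11170 to 266392, which limits precision as stated beside each value. Gene positions and lengths are from the GENCODE annotation of mm10, promoters from RefSeq.

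Tests used limma 3.58.1 in R 4.3.3 (trend, robust) on log2(normalised reads + 1), for genes with a mean of at least 10, adjusted by Benjamini-Hochberg over all genes tested, threshold 0.05. D18 was tested within each sort, and sorts and interactions over all 18 libraries with 1 set of size factors. Alternatives were other pseudocounts, minimums and scalings, limma-voom, a replicate block, a batch term and libraries left out. The batch term is the split by presence of reads on mt-Atp6, mt-Co2 and mt-Co3, and no label names a batch. Leaving out the shallowest library, keeping only libraries with reads of these mitochondrial genes, both of these together, and the per-kilobase share were added after the data were seen. Replicate numbers are in the labels, and same-numbered CD8 libraries deviated together (correlations 0.363, 0.507 and 0.556), so a block was fitted there as an alternative.

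The genes and lists were chosen with earlier results of these data known. Named in each comparison are the genes that pass, or up to 6 with the smallest p whose higher group averages 20 or more. Also named are Psmb5, Psmb6, Psmb7, Psma8, Psmb11, Psmd14, Psmd4, Psmc3ip, the 3 chaperones, the highest and lowest genes per kilobase and up to 3 genes per related list. 1 related gene is not reported here.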

Additional observations from a re-analysis of the deposited data

How the results depend on the processing

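No proteasome gene was called under any alternative run, in any of the 9 comparisons, and the smallest adjusted p of a named gene was 0.0873 (limma). Over all genes the counts called, 0 in each comparison as reported, ranged over the alternatives from 0 to 22 in the CD8 sort, 0 to 35 in the CD4 sort, 0 to 1 in the DC sort, 0 to 126 for CD8 against DC, 0 to 48 for CD4 against DC and 0 to 2 for CD8 against CD4. With the replicate block 20 genes of all were called in the CD8 sort and 0 of the subunits in any comparison. The block gave Psmc2 an adjusted p of 0.113 there (limma), and it changed no call of a subunit. The numbers did not pair the samples in the CD4 sort (correlations −0.136, 0.153 and −0.205) or the DC sort (0.034, −0.094 and 0.141). The core share difference in the CD8 sort was 3.24 points over median subunits. A minimum mean of 50 left 1 subunit in the CD8 D18 comparison and gave no value in the CD4, DC and sort comparisons.

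Of 1388 values of named genes under alternatives, 67 changed sign, all of genes that pass no threshold, and the cause was not tested. In the log2 scale of the report, these were, for D18 against anti-PD-1: under the batch term, Psma7 0.33 in the CD4 sort and Psmb3 −0.24, Psma7 −0.21 and Psma2 −0.10 in the DC sort; without both libraries numbered 3, Psmd4 0.016 in the CD8 sort, Psma1 −0.032, Psmb1 −0.21 and Psmd4 −0.10 in the CD4 sort and Psma2 −0.0059 in the DC sort; without the libraries with at most 1 Cd3e read, Psma7 0.33 in the CD4 sort. Under limma-voom they were Psmb1 −0.047, Psmb6 0.26 and Psmd14 −0.093 in the CD4 sort and Psma1 0.26 and Psmb6 0.060 in the DC sort, and without DC D18 replicate 2 Psma1 0.19 and Psmb6 0.28 in the DC sort.

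Between sorts, the anti-PD-1 libraries alone gave Psmb1 −0.013, Psma1 −0.084 and Psmb6 −0.037 for CD8 against DC, Psma3 −0.12, Psmb2 −0.39, Psmb6 0.14, Psmd14 −0.26 and Psmd4 −0.19 for CD4 against DC, and Psmb6 −0.18 for CD8 against CD4. The D18 libraries alone gave Psma2 0.085 (CD4 against DC) and Psmb5 −0.060 (CD8 against CD4), and leaving out the libraries that stand apart on markers gave Psma2 0.069 and Psmb5 −0.46. Leaving out DC D18 replicate 2 as well gave Psma4 −0.033, Psma1 −0.033 and Psma3 −0.22 (CD8 against DC), Psmb4 −0.13 and Psmd4 −0.048 (CD4 against DC) and Psmb5 −0.46. Under limma-voom the values were Psma3 −0.068 and Psmb3 −0.039 (CD8 against DC) and Psmb4 −0.13, Psma3 −0.52, Psmb2 −0.27 and Psmd4 −0.065 (CD4 against DC).

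With each library left out in turn, the D18 difference ran from −0.32 to 0.053 for Psmd4 in the CD8 sort. In the CD4 sort it ran from −0.20 to 0.43 (Psma1), −0.47 to 0.060 (Psma7), −0.19 to 0.37 (Psmb1), −0.10 to 0.80 (Psmd14) and −1.19 to 0.29 (Psmb6). In the DC sort it ran from −0.25 to 0.58 (Psma2), −0.074 to 1.53 (Psmb3), −2.24 to 0.19 (Psma1), −0.61 to 0.28 (Psmb6) and −0.16 to 0.50 (Psma7). The differences between sorts ran from −0.060 to 1.25 for Psma3 (CD8 against DC), and, for CD4 against DC, from −0.15 to 0.27 (Psmb2), −0.24 to 0.041 (Psma2), −0.40 to 0.28 (Psmb6), −0.066 to 0.29 (Psmd4) and −0.19 to 1.12 (Psma3).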
